A study of Homo sapiens with 6 samples.

Results

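The S100A genes of human chromosome 1 encode small calcium-binding proteins, and 10 of them were examined here: S100A2, S100A4, S100A7, S100A8, S100A9, S100A10, S100A11, S100A13, S100A14 and S100A16. They were taken by gene name from a table of 18678 genes, and all 10 were found and tested. Their mRNA was sequenced in Cal27, a human tongue squamous cell carcinoma line that is long established in culture, and in Cal27-shGRK2, which by its name is Cal27 carrying a short hairpin RNA against GRK2, a kinase that switches off active G protein-coupled receptors by phosphorylation. Both groups were grown in the same serum-containing medium with no other treatment named. A control vector in the Cal27 cells is not named in the labels, and Cal27-shGRK2 is not said to be a clone or a pool. Of 3 libraries in each group, Cal27-shGRK2 replicates 0 and 1 held the same value in all 18678 genes and were counted as 1 sample, which left 3 Cal27 and 2 Cal27-shGRK2 libraries. Separate cultures are not named for the replicates, so the p-values describe the spread between these libraries alone, and that spread may be technical.

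Values were FPKM, which scale fragments by transcript length and by the size of the library, so levels of different genes can be set side by side per length. The table summed to between 590163 and 644831 FPKM per library, and depth itself is unknown. GRK2 (listed as ADRBK1) had 55.3, 59.4 and 55.8 FPKM in Cal27, compared with 17.3 and 16.6 FPKM in Cal27-shGRK2, a log2 fold change of -1.69 ± 0.06 (SE, limma adjusted p = 3.8e-11). Of 13377 genes tested with limma, 29.6% passed an adjusted p of 0.05, with 15.0% higher and 14.6% lower in Cal27-shGRK2. All 16 squamous epithelial markers checked were in the table, with a summed level of 3509 to 3899 FPKM in Cal27 and 1622 to 1662 FPKM in Cal27-shGRK2. Most of this difference was carried by a single keratin gene, KRT5, whose mean fell from 2187 to 756 FPKM (log2 fold change -1.53). The sum therefore says little about the other markers. Of 15 markers tested, 11 were lower, 3 were higher and 1 did not pass. The epithelial adhesion genes EPCAM and CDH1 were among the 3 that were higher.

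S100 proteins are dimers of subunits that each carry a pair of EF-hand calcium sites, and most of their genes lie in a cluster inside the epidermal differentiation complex of chromosome 1q21. S100A7 (psoriasin), S100A8 and S100A9 are called alarmins because, once released, they act as danger signals. S100A8 and S100A9 pair as calprotectin, which withholds metal ions from microbes, and all of these genes are induced in wounded or inflamed stratified epithelium. The other members act mainly inside the cell, several of them as partners of annexins, the cytoskeleton or membranes.

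The 10 genes spanned 1.65 Mb, from 151982915 to 153631360 of chromosome 1 in GENCODE version 29 (hg38). S100A10 and S100A11 stood apart from the other 8, which lay together around S100A9 to S100A13. S100A9 was the member on the plus strand and the other 9 were on the minus strand. The bases before the start of the 3 alarmins are shown because each of these genes fell. Beside them are those of S100A4, which was higher in Cal27-shGRK2, and of S100A2, which fell. Sequences are RefSeq promoters (GRCh38.p14), which were found for all 10 members, each 250 bases ending at the base before the start site and read 5′ to 3′ along the gene's strand. Capitals mark TATAAA, the core of the TATA box, in the first 4 sequences and TGANTCA, the AP-1 motif, in S100A2. S100A2 has 2 listed starts, and the 1 with a match is printed. S100A8 has 3, of which 2 have the same TATAAA (153391097 to 153391102) in their windows, and the start nearest to it is printed. Their positions, in the same order, are chr1:153460652-153460901 (minus strand), chr1:153391074-153391323 (minus), chr1:153357604-153357853 (plus), chr1:153545807-153546056 (minus) and chr1:153565845-153566094 (minus).
S100A7: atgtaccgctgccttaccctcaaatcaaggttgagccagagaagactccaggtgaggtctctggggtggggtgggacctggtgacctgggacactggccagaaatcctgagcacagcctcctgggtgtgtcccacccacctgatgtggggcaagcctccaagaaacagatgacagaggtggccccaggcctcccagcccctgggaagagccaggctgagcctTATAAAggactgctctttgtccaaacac
S100A8: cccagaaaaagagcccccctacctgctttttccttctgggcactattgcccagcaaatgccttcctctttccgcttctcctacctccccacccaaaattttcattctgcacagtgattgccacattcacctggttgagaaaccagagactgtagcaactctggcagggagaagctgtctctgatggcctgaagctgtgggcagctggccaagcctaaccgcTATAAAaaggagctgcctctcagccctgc
S100A9: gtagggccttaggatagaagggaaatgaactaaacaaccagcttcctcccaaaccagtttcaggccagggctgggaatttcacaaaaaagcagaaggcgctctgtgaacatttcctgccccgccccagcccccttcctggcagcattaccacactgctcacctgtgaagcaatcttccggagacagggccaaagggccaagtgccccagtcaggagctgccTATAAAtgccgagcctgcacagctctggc
S100A4: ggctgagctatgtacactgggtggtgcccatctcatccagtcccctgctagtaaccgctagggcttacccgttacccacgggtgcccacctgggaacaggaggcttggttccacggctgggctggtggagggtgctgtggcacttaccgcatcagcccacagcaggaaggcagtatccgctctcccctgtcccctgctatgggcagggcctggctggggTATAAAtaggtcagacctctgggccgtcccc
S100A2: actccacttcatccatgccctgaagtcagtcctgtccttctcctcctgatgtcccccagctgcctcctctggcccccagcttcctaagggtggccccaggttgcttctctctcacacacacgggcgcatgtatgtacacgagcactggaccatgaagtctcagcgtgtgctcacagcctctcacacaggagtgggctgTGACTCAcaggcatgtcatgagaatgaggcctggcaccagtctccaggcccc

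The TATAAA match began 28 bases before the start in S100A7, 29 in S100A8, 29 in S100A9 and 31 in S100A4. It began 126 bases before the other S100A8 start that has it, and a start of S100A13 also had it at 29 bases. Counted by promoter, 6 of the members' 16 listed windows held TATAAA, against 10.7% of all 35116 listed promoters of the same 250-base length, on either strand. Counted by gene, with a match at any listed start, 3 of 3 alarmins and 2 of the 7 other members held it, against 3563 of 27305 genes with a listed promoter. TGANTCA (6.57% of all promoters) matched S100A2 and no other member. TTNNGCAA, a C/EBP motif (9.05%), matched S100A11 and no other member, and TTCNNNGAA, a STAT motif (6.57%), matched none of the 10. No match says only that these letters are not in this window, on either strand. Each letter N stands for any base, and no match overlapped another motif.

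Of the 10 genes, 6 fell, 3 rose and 1 did not pass in Cal27-shGRK2, against 14.6% lower and 15.0% higher of all genes tested. The 3 alarmins had the largest falls of the family. Without Cal27 replicate 0, 1 member passed as higher in place of 3, and without Cal27 replicate 1, 2 did. Without Cal27-shGRK2 replicate 2, the log2 fold changes of S100A4, S100A13 and S100A16 were 0.12, 0.20 and 0.34. The median log2 fold change of the 10 was -0.52, against -0.01 over all genes tested. In 9 of 10 members no library of either group overlapped the other group, as in 53.3% of all genes tested. In 6 of the 10 every Cal27-shGRK2 library was below every Cal27 library, against 27.4% of all genes tested. A log2 fold change of -1 or below that passed was seen in 4 of the 10 (S100A2, S100A7, S100A8 and S100A9), against 1.31% of all genes tested. Each log2 fold change was taken on log2(FPKM + 1), where the change of low genes is understated, and n = 3 and 2 throughout. With 3 and 2 libraries, an exact permutation test of a single value cannot go below a two-sided p of 0.1. In these bulk libraries, fewer cells expressing a gene and less RNA per cell cannot be told apart.

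**Figure D1:**
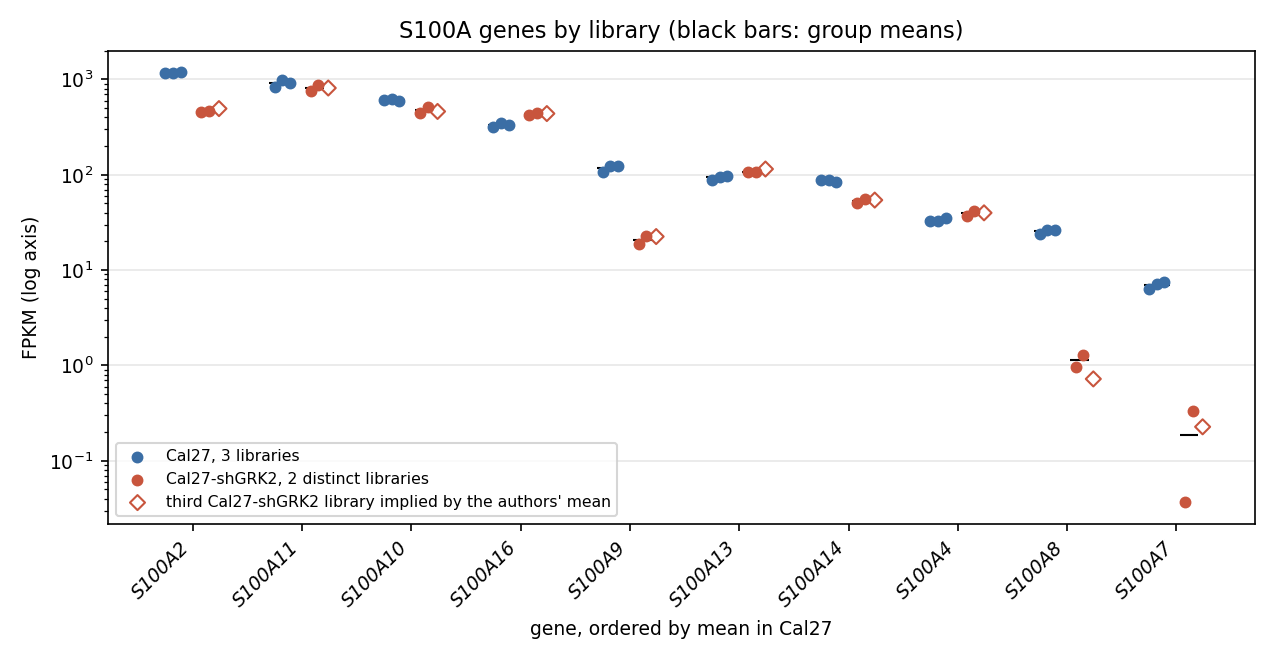
FPKM of each S100A gene on a log axis, ordered by mean level in Cal27, with a point per library, a black bar at each group mean and an open diamond for a further Cal27-shGRK2 library that the authors' condition mean implies. S100A8 and S100A7 drop to about 1 FPKM or below, while S100A11 keeps overlapping points.

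S100A8 had 24.0, 26.5 and 26.5 FPKM in the Cal27 libraries and 0.956 and 1.30 FPKM in the Cal27-shGRK2 libraries. Both Cal27-shGRK2 values lay far below every Cal27 value. Its mean fell from 25.7 ± 1.47 (SD) to 1.13 ± 0.241 FPKM, which is 22.8-fold lower. The log2 fold change was -3.65 ± 0.09 (SE, 95% interval -3.84 to -3.46, limma adjusted p = 2.9e-13), the rank 7 from the lowest of 13377 genes.

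S100A9, its partner in calprotectin, was the most abundant alarmin, with 107, 124 and 123 FPKM in Cal27 against 18.6 and 22.9 FPKM in Cal27-shGRK2. The groups were well separated, but both Cal27-shGRK2 libraries kept a clear signal. The mean was 5.68-fold lower, or 17.6% of the Cal27 mean, with a log2 fold change of -2.45 ± 0.09 (limma adjusted p = 1.3e-08, rank 30 from the lowest).

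S100A7, a keratinocyte antimicrobial protein, was the lowest of the 10 members in both groups. It had 6.35, 7.21 and 7.49 FPKM in Cal27, compared with 0.0367 and 0.334 FPKM in Cal27-shGRK2. The 2 low values differed widely from each other, so the size of the fall is uncertain although every library of the group was low. The mean was 37.9-fold lower, and the Cal27 mean was far above both Cal27-shGRK2 values, 191 times the lower of them. On the log2(FPKM + 1) scale the change was -2.77 ± 0.12 (limma adjusted p = 1.5e-10), and with a pseudocount of 0.1 it was -4.87 (adjusted p = 0.011). Of the 50-base words of S100A7 transcripts, 14.2% also occur in its close copy S100A7A, which was not analysed here, so reads could be shared between them.

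S100A8 and S100A9 are usually described as a pair, and here S100A8 had the larger fall. The ratio of S100A9 to S100A8 FPKM was 4.47, 4.67 and 4.66 in Cal27 and 19.5 and 17.7 in Cal27-shGRK2. The ratio was therefore higher in both Cal27-shGRK2 libraries than in any Cal27 library (exact permutation p = 0.1, two-sided, the smallest possible). The 95% intervals of their log2 fold changes, -3.84 to -3.46 for S100A8 and -2.66 to -2.25 for S100A9, did not overlap.

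S100A2, a nuclear S100 protein known as a target of p53 family factors, was the most abundant member in Cal27. Its level was 1176, 1157 and 1191 FPKM in Cal27 against 451 and 468 FPKM in Cal27-shGRK2, with little spread in either group. It fell by 1.35 ± 0.06 (SE) on the log2 scale, to 39.1% of the Cal27 mean (limma adjusted p = 1.3e-10). In FPKM this was the largest loss of the family, and S100A2 went from 34.6% ± 1.28 (SD) of the summed FPKM of the 10 genes to 19.1% ± 0.763. TP63, the lineage factor of squamous epithelium and a p53 family member, was 31.8 ± 0.417 and 10.5 ± 0.00877 FPKM (log2 fold change -1.51 ± 0.06), and its part in the fall of S100A2 was not tested (TP63 was singled out after its values were seen).

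S100A14, which is expressed mainly in epithelia, had 88.3, 87.8 and 84.9 FPKM in Cal27, compared with 50.5 and 55.2 FPKM in Cal27-shGRK2. All Cal27 values were above all Cal27-shGRK2 values. Its mean was 60.7% of that in Cal27, a log2 fold change of -0.71 ± 0.06 (limma adjusted p = 4.5e-07).

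S100A10, the small subunit that joins pairs of annexin A2 at membranes and does not bind calcium, had 604, 617 and 590 FPKM in Cal27 against 447 and 513 FPKM in Cal27-shGRK2. The fall of 0.33 ± 0.07 on the log2 scale passed (limma adjusted p = 0.0013) but was small, at 79.5% of the Cal27 mean. ANXA2, its annexin partner, which was chosen for this comparison after its values were seen, rose, and the ratio of ANXA2 to S100A10 FPKM was 2.57, 2.56 and 2.64 in Cal27 and 3.99 and 3.61 in Cal27-shGRK2. The ratio was higher in both Cal27-shGRK2 libraries (exact permutation p = 0.1, two-sided, the smallest possible). ANXA2 itself had a log2 fold change of 0.22 ± 0.06 (limma adjusted p = 0.0084), but did not pass without Cal27-shGRK2 replicate 2 (adjusted p = 0.069).

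S100A11, a partner of annexin A1, had 844, 987 and 921 FPKM in Cal27, compared with 762 and 869 FPKM in Cal27-shGRK2. It was the member whose libraries overlapped, and its log2 fold change of -0.17 ± 0.08 (95% interval -0.33 to -0.01) did not pass (limma adjusted p = 0.11). Without Cal27 replicate 0, the lowest of that group, the adjusted p was 0.029.

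**Figure D2:**
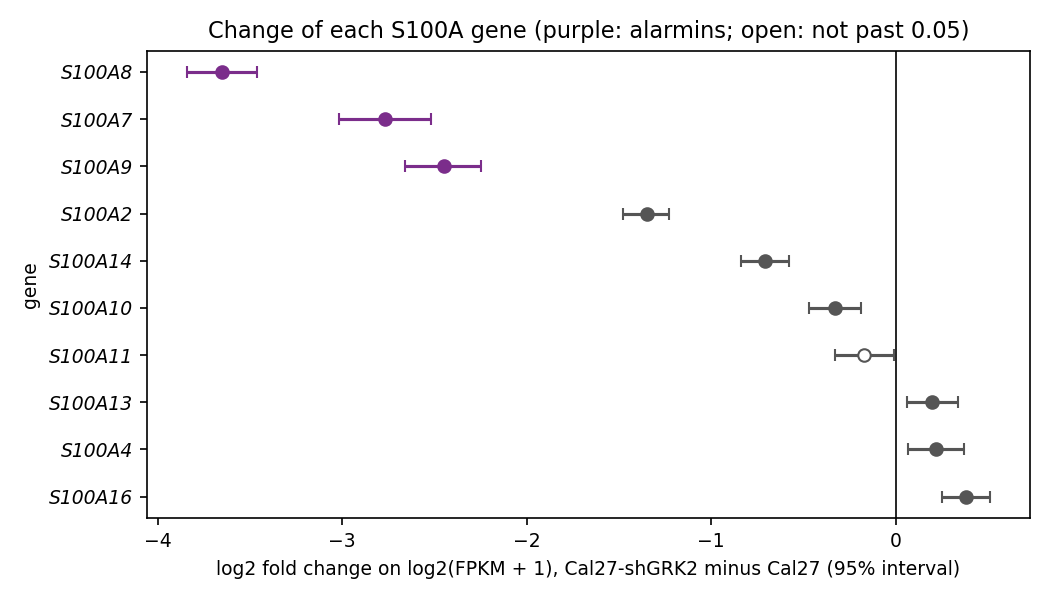
Log2 fold change of each S100A gene (points) with its 95% interval from limma (bars), on the log2(FPKM + 1) scale, Cal27-shGRK2 minus Cal27. The 3 alarmins, in purple, run from -3.65 to -2.45, and the other 7 from -1.35 to 0.38.

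S100A16, a widely expressed member, was the member with the largest rise. It had 319, 347 and 333 FPKM in Cal27 against 423 and 442 FPKM in Cal27-shGRK2, with no overlap. The mean was 1.30-fold higher, a log2 fold change of 0.38 ± 0.06 (limma adjusted p = 2.2e-04).

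S100A4, known as metastasin and as a marker of motile and mesenchymal cells, had 32.9, 32.9 and 34.9 FPKM in Cal27, compared with 36.6 and 42.0 FPKM in Cal27-shGRK2. The lower Cal27-shGRK2 value lay close to the highest Cal27 value. Its log2 fold change of 0.22 ± 0.07 passed (limma adjusted p = 0.030), but the call was lost without Cal27 replicate 0 (0.059), Cal27 replicate 1 (0.055) or Cal27-shGRK2 replicate 2 (0.34). GENCODE places S100A3 over 2044 bases of S100A4 on the same strand, and S100A3 had a log2 fold change of -0.01 ± 0.09.

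S100A13, which takes part in the release of FGF1 and IL1A, had 88.1, 95.4 and 98.2 FPKM in Cal27 against 108 and 108 FPKM in Cal27-shGRK2. Its rise of 0.20 ± 0.06 on the log2 scale (limma adjusted p = 0.027) was lost without Cal27 replicate 0 (0.13) or either Cal27-shGRK2 library (0.12 without the shared one and 0.13 without replicate 2). Of its 50-base words, 18.8% occur in AL162258.1, which overlaps it on the same strand, so the split of reads between these features is uncertain. S100A1 overlaps S100A13 on the other strand.

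In the authors' deposited table, 7 of the 10 members are marked significant, against 15.4% of its 18678 genes. The 3 that are not are S100A4 (q = 0.135), S100A11 (q = 0.281) and S100A13 (q = 0.478). The authors' deposited log2 fold change, which has no pseudocount, is -5.14 for S100A7, -4.69 for S100A8 and -2.47 for S100A9. The authors' condition value equalled the mean of the 3 library columns in all 13339 genes of at least 1 FPKM in Cal27, at a relative tolerance of 1e-04. If it is also a mean of 3 for Cal27-shGRK2, it implies a further library, distinct from the 2 in the columns used here. That implied library had 0.722 FPKM of S100A8, 22.5 of S100A9, 0.227 of S100A7, 495 of S100A2 and 439 of S100A16, each on the same side of every Cal27 library as the 2 measured ones. Its S100A4 and S100A13, at 39.9 and 115 FPKM, were also above every Cal27 library, and its S100A11, at 814 FPKM, was below every Cal27 library. With it, 9 members passed and S100A11 did not (adjusted p = 0.051).

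The order of levels shifted with the falls. In Cal27 the order was S100A2, S100A11, S100A10, S100A16, S100A9, S100A13, S100A14, S100A4, S100A8 and S100A7. Neighbours in that order did not overlap between libraries, except S100A13 and S100A14. In Cal27-shGRK2, S100A11 was highest at 815 ± 75.7 FPKM (SD), followed by S100A10 (480 ± 46.7), S100A2 (451 and 468 FPKM in the libraries) and S100A16 (433 ± 13.8), and the libraries of S100A10 and S100A2 overlapped. S100A9 dropped from place 5 to place 8, below S100A13, S100A14 and S100A4, at 20.8 ± 3.06 FPKM.

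Set side by side, the alarmins were further below the other members in both Cal27-shGRK2 libraries than in any Cal27 library. The mean log2(FPKM + 1) of the 3 alarmins was 4.76, 4.93 and 4.94 in Cal27 and 1.77 and 2.07 in Cal27-shGRK2. That of the other 7 members averaged 7.97 ± 0.03 (SD) in Cal27 and was 7.66 and 7.78 in Cal27-shGRK2. These 7 did not move alike, with log2 fold changes from -1.35 for S100A2 to 0.38 for S100A16. The difference, alarmins minus others, changed by -2.70, from -3.10 ± 0.07 (SD) to -5.80 ± 0.12. As these scores run over chosen members, no p is given. The alarmins made up 4.17%, 4.53% and 4.62% of the summed FPKM of the 10 genes in Cal27 and 0.854% and 0.974% in Cal27-shGRK2. Of all genes tested, 40 (0.299%) fell by at least 2 on the log2 scale and passed, and the 3 alarmins were among these.

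**Figure D3:**
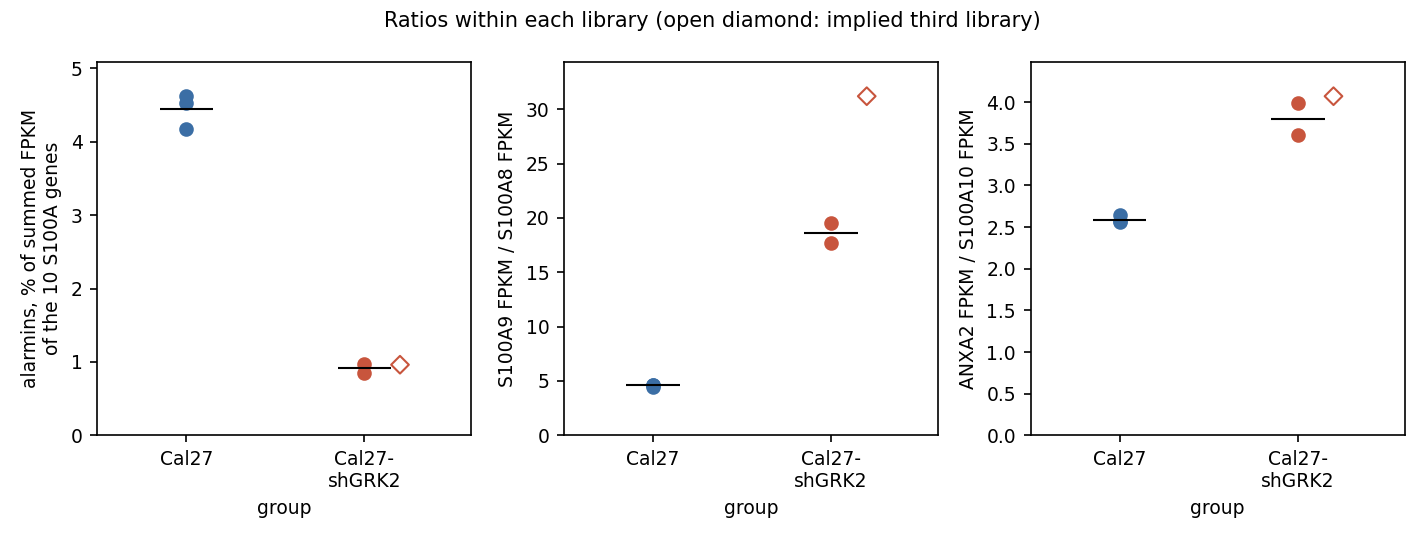
From left to right, the alarmins' percentage of the summed FPKM of the 10 S100A genes, the ratio of S100A9 to S100A8 FPKM and the ratio of ANXA2 to S100A10 FPKM, with a point per library, a bar at each group mean and an open diamond for the implied library. The alarmin percentage is lower and both ratios are higher in Cal27-shGRK2, and the implied library has the highest S100A9 to S100A8 ratio, 31.2.

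Among the tested genes of the 1q21 list, those with the largest falls were neighbours in map order, from SPRR1A to S100A7. S100A9, S100A8 and S100A7 follow the small proline-rich SPRR genes, precursors of the cornified envelope, and all 6 tested SPRR genes of the list fell, with log2 fold changes from -4.47 to -1.52. SPRR1A had 24.3 ± 1.07 FPKM in Cal27 and 0.304 and a listed 0 in the Cal27-shGRK2 libraries, and members of the SPRR family can share reads. S100A6, S100A5, S100A4 and S100A3 lie 177 to 189 kb past the start of S100A9, and none of them fell. S100A2 at 203 kb and S100A14 at 256 kb fell, whereas S100A16 at 249 kb, between them, rose. The 17 tested genes of the list that belong to neither family all lay before S100A10 or past S100A13. Of these 17, 0 rose and 1 fell, with a median of 0.08, against 15.0% higher and 14.6% lower of all genes tested. The gene that fell was GATAD2B (-0.36, named after its value was seen). It did not pass without Cal27 replicate 1 (limma adjusted p = 0.059). Nor did it pass with libraries blocked by replicate number and the shared library numbered 0 (0.069). Leaving out a Cal27-shGRK2 library leaves 1 in that group, so only the size of the change is given, not whether it passed. The log2 fold change of GATAD2B was -0.42 without the shared library and -0.30 without Cal27-shGRK2 replicate 2. These 17 leave out 5 genes of the epidermal differentiation complex that lay below the filter of 1 FPKM and were not tested, and in each of the 5 every library of a group lay on the same side of the other group (named after their values were seen). Between S100A11 and the SPRR genes, the cornified envelope precursor IVL had a mean of 1.13 FPKM in Cal27 against 0.0997 FPKM in Cal27-shGRK2, RPTN had 0.166 against 0.0143 FPKM, and filaggrin (FLG) had 0.0395 against 0.409 FPKM. Between the SPRR genes and S100A9, the peptidoglycan recognition genes PGLYRP3 and PGLYRP4 had 0.191 and 0.453 FPKM in Cal27, while in Cal27-shGRK2 PGLYRP3 was listed at 0 in both libraries and PGLYRP4 had 0.148 FPKM. At an unadjusted p under 0.05 the counts in these 17 genes were 4 higher and 2 lower.

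**Figure D4:**
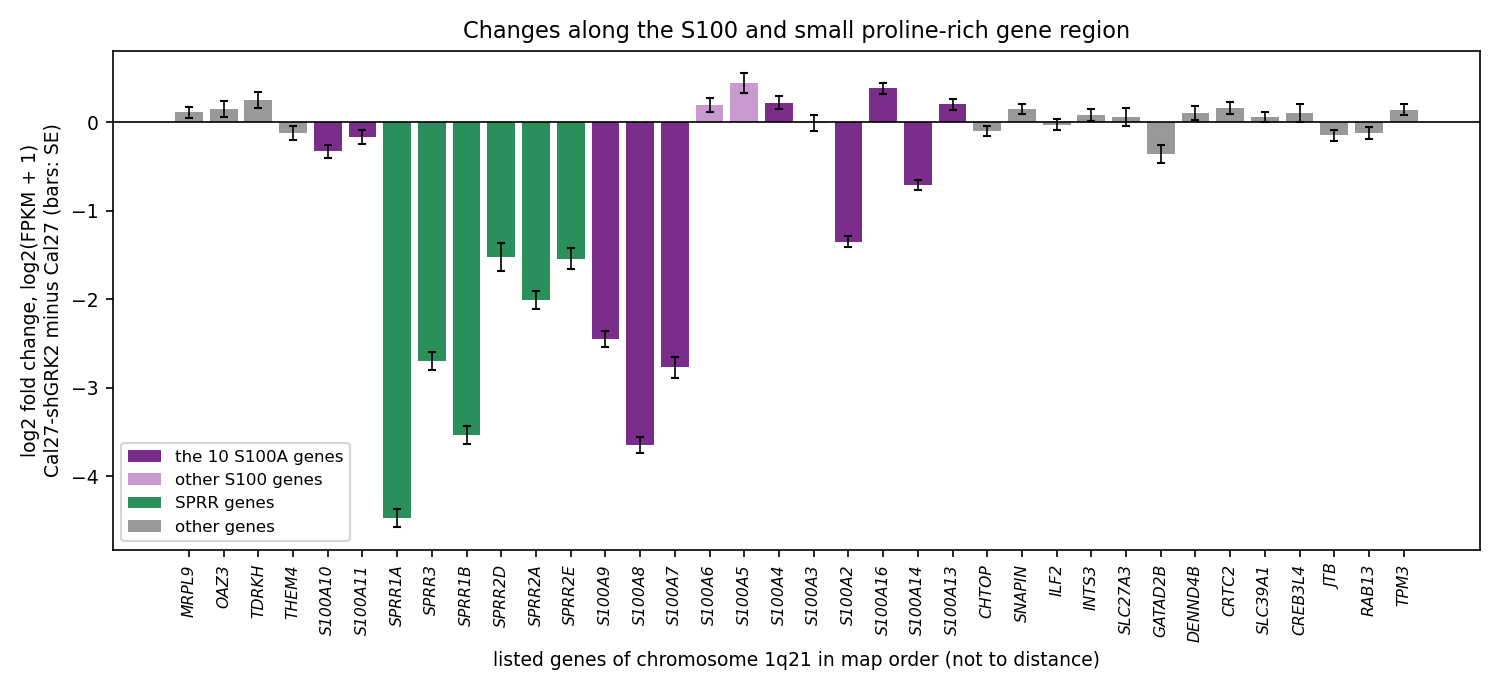
Log2 fold change (bars) with its SE for each tested gene of the chromosome 1q21 list, in map order rather than to distance. The deep falls run from SPRR1A to S100A7, and the tested genes beyond S100A13 range from -0.36 to 0.16.

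Of the other S100 genes, 7 of 12 listed were in the table and 4 reached the filter of a mean of 1 FPKM. S100A6, a calcium sensor whose Cal27 mean of 1165 FPKM was next to that of S100A2, had 1076, 1251 and 1168 FPKM in Cal27, compared with 1227 and 1433 FPKM in Cal27-shGRK2. These overlapped, and the log2 fold change of 0.19 ± 0.08 did not pass (limma adjusted p = 0.092), though it did under all 3 other scalings (0.037, 0.012 and 0.0056) and without Cal27 replicate 1 (0.044) or the shared Cal27-shGRK2 library (0.033). S100A5 rose from 0.771 ± 0.138 (SD) to 1.40 ± 0.0384 FPKM (0.44 ± 0.11), which did not pass without either Cal27-shGRK2 library (adjusted p = 0.053 and 0.068). S100PBP, which encodes a binding protein of S100P and is no S100 protein itself, had a log2 fold change of 0.11 ± 0.09. S100A12, another calgranulin and a gene of neutrophils and monocytes, lay below the filter at 0.0423 to 0.268 FPKM in the 5 libraries. S100P and S100A1 also lay below it, at 0.0104 to 0.714 and 0.336 to 0.516 FPKM.

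S100A8 and S100A9 are also abundant in myeloid cells, so myeloid and other blood markers were read beside them. Of 15 such markers, 5 were in the table, with a summed level of 2.32 to 3.43 FPKM in Cal27 and 6.01 to 6.18 FPKM in Cal27-shGRK2. CD68, a lysosomal protein, carried that difference, with a mean of 1.01 FPKM in Cal27 and 3.91 FPKM in Cal27-shGRK2. The 4 markers other than CD68 summed to 1.55, 1.63 and 2.34 FPKM in Cal27, compared with 1.88 and 2.49 FPKM in Cal27-shGRK2, which overlapped. Of these 4, CD14 was at 71.2% and S100A12 at 53.5% of the Cal27 mean, both with overlapping libraries. CSF1R was at 228% and ITGAM at 156% of it, both without overlap. All 4 lay below the filter, and the part of such cells in the alarmins' values was not tested. None of the 5 was below 0.1 FPKM in every library. The 5 fibroblast and endothelial markers in the table summed to 7.92 to 8.68 FPKM in Cal27 and 11.2 to 11.5 FPKM in Cal27-shGRK2. That difference was in CDH5, an endothelial cadherin, with 3.68 and 6.91 FPKM, and the other 4 summed to 4.35 to 4.71 FPKM in Cal27 and 4.38 to 4.46 FPKM in Cal27-shGRK2. Of these 4, COL1A1 had 3.67 FPKM in Cal27 and 2.99 FPKM in Cal27-shGRK2 and did not pass. PDGFRB (0.182 and 0.608 FPKM) and LUM (0.278 and 0.395 FPKM) were higher in Cal27-shGRK2 without overlap. COL1A2 (0.376 and 0.424 FPKM) overlapped. PDGFRB, LUM and COL1A2 lay below the filter and were not tested. Of the 15 tested squamous markers, the 11 that fell included KRT14 (18.9 ± 2.23 to 0.197 ± 0.053 FPKM, SD) and KRT17 (446 ± 29.5 to 53.8 ± 2.14 FPKM). KRT7 (0.88), CDH1 (0.57) and EPCAM (0.45) rose, and PITX1 (-0.02) did not pass. The part of these markers in the alarmins' fall was not tested.

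Receptors and binding partners of S100 proteins moved both ways. Of 22 tested, 6 passed as higher and 6 as lower, while 10 did not pass, and the median log2 fold change was 0.03. Over all genes tested, 15.0% were higher and 14.6% lower. TLR4, the receptor through which S100A8 and S100A9 activate innate signalling, rose from 1.67, 2.01 and 2.09 FPKM in Cal27 to 4.48 and 4.85 FPKM in Cal27-shGRK2 (log2 fold change 0.96 ± 0.10, limma adjusted p = 3.0e-06). ANXA6 rose by 1.39, FGF1, the cargo of S100A13, by 0.28, and the S100A10 partner AHNAK by 0.24. IL1A (-0.75), the fatty acid-binding partner of psoriasin FABP5 (-0.58), the S100A11 partner ANXA1 (-0.52) and MCAM (-0.34) fell. The list had 7 calls in place of 12 without Cal27-shGRK2 replicate 2, and leaving out single libraries ended 3 of the calls just named. That of FGF1 was lost when any single Cal27 library was left out (adjusted p 0.051 to 0.084) or Cal27-shGRK2 replicate 2 (0.32), and that of MCAM without the shared Cal27-shGRK2 library (0.16). AHNAK lost it without Cal27 replicate 0 (0.099) or 2 (0.10) or either Cal27-shGRK2 library (0.29 and 0.079).

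Genes reported to drive alarmin transcription were also mixed, with 7 of 30 tested higher, 9 lower and 14 not passing, and a median of -0.05. The shares over all genes tested were 15.0% higher and 14.6% lower. Without the shared Cal27-shGRK2 library the list had 8 calls in place of 16. The inflammatory cytokine IL1B (8.82 ± 0.685 to 4.06 ± 0.212 FPKM, SD, -0.95) and the transcription factor CEBPA (-0.95) fell, as did the AP-1 subunits JUNB (-0.53) and FOS (-0.41), the last not past the threshold without Cal27 replicate 2 (adjusted p = 0.077) or the shared Cal27-shGRK2 library (0.27). The AP-1 subunits FOSL1 (0.91), JUN (0.46) and FOSL2 (0.44) and the cytokine receptor subunit IL6ST (0.59) rose. RELA and STAT3 had log2 fold changes of 0.09 ± 0.07 and -0.05 ± 0.07 and did not pass (limma adjusted p = 0.35 and 0.61).

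Other antimicrobial genes of keratinocytes mostly fell with the alarmins. Of 6 tested, 5 were lower and 1 was higher, against 14.6% lower and 15.0% higher of all genes tested, and their median was -0.93. The protease inhibitor SLPI had 52.2, 52.1 and 47.2 FPKM in Cal27 against 11.4 and 11.9 FPKM in Cal27-shGRK2 (log2 fold change -2.02 ± 0.07, limma adjusted p = 1.0e-11). The elastase inhibitor PI3 (-1.98), the chemokine CCL20 (-0.95) and the ribonuclease RNASE7 (-0.92) fell too. The lectin LGALS3 rose by 0.23, but not without Cal27 replicate 0 (adjusted p = 0.096) or either Cal27-shGRK2 library (0.070 and 0.16).

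Across the 5 libraries, the profiles nearest to that of S100A8 belonged to H19, MMP13, SPRR1B, PTHLH, AC019349.5 and KRT14. Likeness was the Euclidean distance between centred log2(FPKM + 1) profiles of the 9685 genes whose mean reached 5 FPKM in a group, and these 6 lay 0.19 to 0.57 from S100A8. H19, an imprinted noncoding RNA, was nearest, with 20.4 ± 0.812 (SD) and 0.738 ± 0.0252 FPKM. The genes nearest to the mean profile of the other 7 members were CGAS (listed as MB21D1), B4GALT4, GPD2, WDR43, RNF114 and ZNF207, each at a distance of 0.03, with log2 fold changes of -0.24 to -0.23. That mean averages members with log2 fold changes from -1.35 to 0.38, so genes near it need not resemble any single member. The 5 libraries fall into 2 groups, so a small distance is mainly a like change between groups.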

How the data were processed

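The values come from 3 Cal27 and 3 Cal27-shGRK2 libraries, prepared with a stranded mRNA kit per the labels' protocols. The submitters' processing notes name hg38, Cuffdiff 2.2.1, TopHat2 2.1.0 and Bowtie2 2.2.6. The annotation and the strand setting are not given in the sources used here. Per the file headers, the authors' table holds FPKM by library and by condition, a p-value, a q-value, a log2 fold change and a test score that was not used here. FPKM of 0 is written there as 0.0001 and was read as 0.

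Identical columns were counted once. A gene was tested when its mean over the 5 distinct libraries reached 1 FPKM (13377 genes). limma 3.58.1 in R 4.3.3, with trend and robust settings and 3 residual degrees of freedom, compared the groups on log2(FPKM + 1), with two-sided p-values adjusted by Benjamini-Hochberg over every tested gene and a threshold of 0.05. The script was tested on simulated data. The depth per library is unknown, so no counting interval is given, and the number of libraries limits the precision.

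The 10 members and all gene lists were chosen with earlier results of these data known. All members and other S100 genes were named. From each further list, up to 4 genes past the threshold with the largest change in each direction and up to 2 of the most abundant genes not past it could be named, besides all cell type markers and the 6 nearest profiles. Alternatives changed the pseudocount, the filter, the scaling, the variance model and the replicate block, left out each library, and added the implied library.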

Additional observations from a re-analysis of the deposited data

How the results depend on the processing

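Over 15 alternatives (14 for S100A7, which lies below a filter of 5 FPKM), S100A2, S100A7, S100A8, S100A9, S100A10, S100A14 and S100A16 kept their direction and stayed past the threshold, and none of the 10 members changed sign. S100A4 lost its call in 6 alternatives (adjusted p 0.0075 to 0.34 over the 15) and S100A13 in 5 (0.0037 to 0.25), while S100A11 passed in 1 (0.029 to 0.62). With limma without trend and not robust, 1 member passed as higher in place of 3. The change of the alarmins minus the other members was -2.70 as reported, -3.67 with a pseudocount of 0.1 and -2.98 after rescaling to a common total, and the cause was not tested. That rescaling also moved the split of all calls to 2850 higher and 1512 lower, against 2008 and 1949. Leaving out each library in turn gave 2600 to 4019 genes past the threshold, against 3957, with 1246 to 2184 higher and 1066 to 1835 lower. The lowest total and the lowest count of lower genes came without the shared Cal27-shGRK2 library, and the lowest count of higher genes without Cal27-shGRK2 replicate 2. Over the same leave-outs, 7 to 9 members passed, 1 to 3 of them higher and 6 to 7 lower, the alarmins' change ran from -2.79 to -2.62 and that of GRK2 from -1.71 to -1.66. Where 1 Cal27-shGRK2 library remained, it was assumed to vary like the other group. The libraries share only a number between groups: their deviations from the group means correlated by 0.08 for number 0 and 0.017 for number 2. A replicate block called 3960 genes and 9 members with the shared library numbered 0, and 3481 genes and 7 members, 1 of them higher, with it numbered 1. Depth is unknown, so how many reads lie behind low values, such as those of S100A7 in Cal27-shGRK2, cannot be given.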
